A study of Gossypium hirsutum with 42 samples.

Results

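Gh_D12G2009 is a gene of upland cotton (Gossypium hirsutum) that the deposited annotation describes as nine-cis-epoxycarotenoid dioxygenase 4. It is a single row of the expression table, the assembled locus MSTRG.56429, 1 of 100881 loci, and was chosen by its leaf FPKM, which was near 0 in the inbred A and high in the inbred C. Those values selected the gene, so comparisons that hold the leaf libraries of A or C, and all comparisons with A alone, are given as a description without a test. Its name places it on chromosome D12 of the TM-1 genome, and the table gives no coordinates, exons or sequence.

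Carotenoid cleavage dioxygenases cut carotenoids, the yellow and orange pigments of plastids, into smaller apocarotenoids. In Arabidopsis the gene called NCED4 is CCD4, a plastid enzyme that degrades carotenoids, while other NCED members cut epoxycarotenoids in the committed step of abscisic acid (ABA) synthesis. CCD4 enzymes keep carotenoid content low in several plant organs, and in chrysanthemum a CCD4 gene is needed for white petals. The table assigns Gh_D12G2009 to the chloroplast and the plastoglobule, a lipid droplet of the plastid, but its enzyme code is that of the ABA-forming cleavage, so the annotation does not settle which reaction the cotton protein performs.

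The RNA of root and leaf was sequenced in 4 inbreds and 3 F1 hybrids, with 3 replicate plants of each genotype and 42 libraries in all. The maternal parent of every hybrid was A (SJ48). The paternal parents were B (Z98-15), C (851-2) and D (DT-8), and their hybrids with A were named H, M and L for high, medium and low yield heterosis. All seedlings grew untreated in Hoagland solution, and each plant gave both its root and its leaf after expansion of the true leaves. Expression is in FPKM, fragment counts scaled by gene length and library size, and errors after ± are SD over 3 libraries.

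The tissue labels were compared with marker genes. Of 16 expressed root marker loci 14 were higher in root, with a summed FPKM of 102 to 208 in root libraries and 35.2 to 46.1 in leaf libraries. All 38 expressed light-harvesting complex loci were higher in leaf (7037 to 10957 against 60.7 to 172), a list added after the data were seen because the first leaf list matched only 2 loci. Relative sequencing depth, read from the recurring steps of low FPKM values, lay between 0.833 and 1.21 times the median library, and the counts behind a value are unknown. Replicate 1 of H, the same plant in root and leaf, stood apart: 39 of 45932 loci differed from both other H plants by more than 2 on the log2 scale in both tissues, against 6 to 20 loci for each of the other 20 plants. Gh_D12G2009 was not among these 39 loci. Results that rest on it are given with and without it.

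Gh_D12G2009 was near absent in 2 inbreds, A and B, and present in the other 2, C and D, so the low level is not particular to A. In leaf the replicates of A read 0.265, 0.249 and 0.269 FPKM and those of B 0.688, 0.734 and 0.609 FPKM. The leaf libraries of C held 55.5, 60.0 and 54.0 FPKM, and those of D held 78.7, 86.3 and 103.3 FPKM. No library of A or B came near any of C or D. Ranked from the highest value down, the gene stood at ranks 692 to 798 of all loci in the leaf libraries of C and at ranks 354 to 489 in those of D, whereas 39.0% to 39.9% of all loci had lower values in the leaf of A.

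The root showed the same division of the inbreds at a lower level. A read 0.171, 0.145 and 0.245 FPKM and B 0.193, 0.143 and 0.172 FPKM, which overlapped. C stood at 7.13, 6.88 and 7.48 FPKM and D at 10.7, 9.15 and 10.2 FPKM, both far above A and B and with every D library above every C library. The plot of all 42 libraries shows the 2 low and the 2 high inbreds in both tissues.

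**Figure D1:**
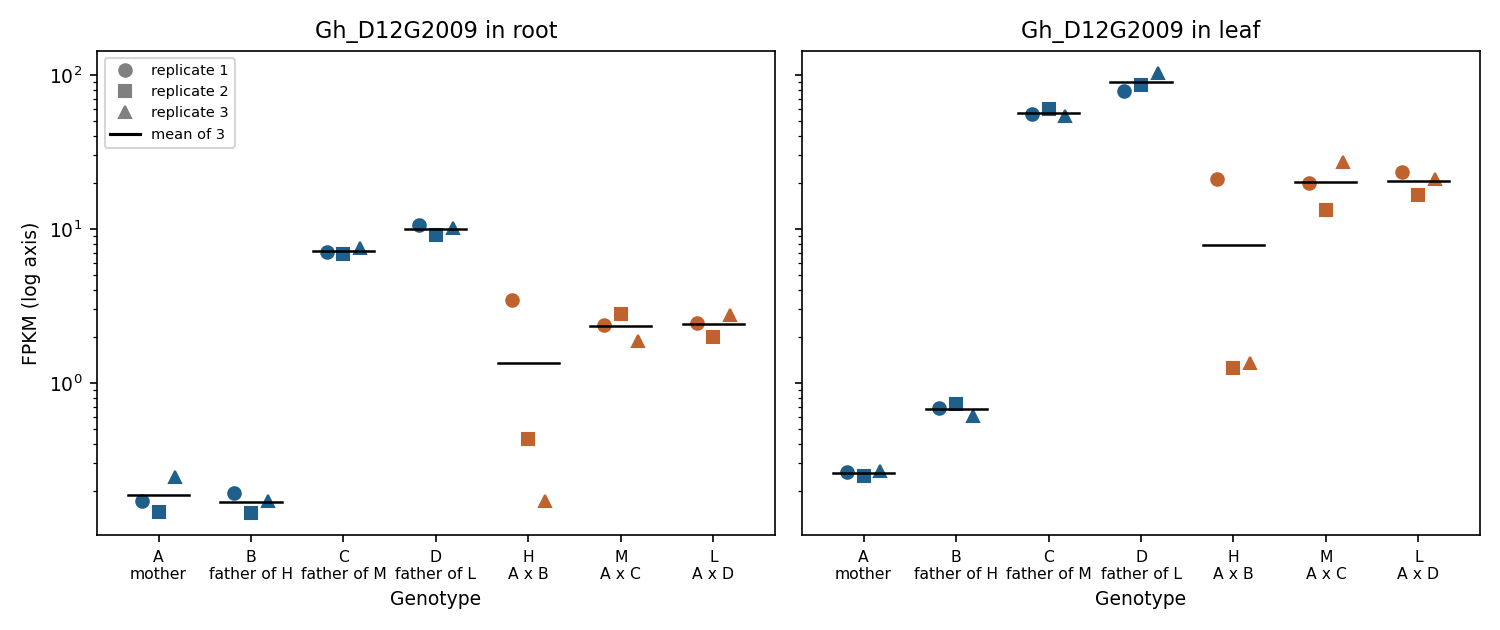
FPKM of Gh_D12G2009 in root (left) and leaf (right) on a log axis, 1 point per library, with inbreds in blue, hybrids in orange, marker shape for the replicate plant and a black line for the mean of 3. A and B lie under 1 FPKM in every library, C and D lie from 6.88 to 10.7 in root and from 54.0 to 103.3 in leaf, M and L lie between, and replicate 1 of H lies with M and L while its other replicates lie near or below 1.35.

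In leaf the mean was 56.5 ± 3.10 FPKM in C and 89.4 ± 12.6 in D, which were 216-fold (SE 8.49) and 342-fold (SE 29.0) that of A at 0.261 ± 0.0105. In root the corresponding folds were 38.3 (SE 6.16) and 53.4 (SE 8.83). The leaf level of B, 0.677 ± 0.0628 FPKM, was 2.59-fold that of A (SE 0.151) without overlap, and the root levels of B and A had a ratio of 0.904 (SE 0.163).

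Among the paternal parents, D and C exceeded B. In root the log2 difference, on the scale log2(FPKM + 1) used throughout, was 2.80 for C minus B (SE 0.31, 95% interval 2.14 to 3.46, limma adjusted p = 2.14e-05) and 3.23 for D minus B (SE 0.31, interval 2.57 to 3.89, adjusted p = 2.52e-06). In leaf D exceeded B by 5.74 (SE 0.56, interval 4.56 to 6.93, adjusted p = 3.36e-06) and C exceeded B by 5.10. A locus counted as called where the log2 difference exceeded 1 in size and the adjusted p was below 0.05. By this rule 1.07% of loci tested were called in C minus B in root, and 3% in root and 1.69% in leaf in D minus B, and the gene was among them.

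D was 1.40-fold C in root (SE 0.0706) and 1.58-fold in leaf (SE 0.138), with no overlap of libraries in either tissue. In the fit over all genotypes the root difference was 0.43 (SE 0.31, 95% interval -0.23 to 1.09, limma adjusted p = 0.385) and did not pass. This SE is pooled over all genotypes and so holds the spread between the plants of H. With 1 library left out at a time, replicate 1 of H among them, the limma adjusted p ranged from 0.0166 to 0.532. The difference then ranged from 0.39 to 0.49 and never passed the log2 limit. The leaf difference was 0.65 (SE 0.56, interval -0.54 to 1.83). In root 2.97% of loci tested were called between D and C.

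The hybrids M and L, each with 1 parent that expressed the gene, carried it at an intermediate level. Leaf libraries of M held 19.9, 13.3 and 27.1 FPKM and those of L held 23.6, 16.6 and 21.05 FPKM. In root M read 2.39, 2.81 and 1.86 FPKM and L read 2.44, 1.99 and 2.77 FPKM. Every one of these 12 libraries lay above all libraries of A and below all libraries of its paternal parent in the same tissue.

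M reached 32.8% of the level of C in root (SE 3.89) and 35.6% in leaf (SE 7.11). L reached 24.0% of the level of D in root (SE 2.49) and 22.8% in leaf (SE 2.94). The share was therefore of similar size in root and leaf within each hybrid, although the leaf held the larger amount.

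The fall from the paternal parent was tested in the comparisons without A. In root M was lower than C by a log2 difference of -1.29 (SE 0.31, 95% interval -1.95 to -0.63, limma adjusted p = 0.0114), where 2.61% of loci tested were called, and this call was lost with a pseudocount of 0.1 (-1.58, adjusted p = 0.089). L was lower than D by -1.70 in root (SE 0.31, interval -2.36 to -1.04, adjusted p = 0.000747, with 4.68% of loci called) and by -2.08 in leaf (SE 0.56, interval -3.27 to -0.90, adjusted p = 0.0168, with 2.97% of loci called). The leaf difference of M and C was -1.50 (SE 0.56). The leaf call of L against D was lost without replicate 3 of D (-1.98, adjusted p = 0.0589) and without replicate 2 of L (-1.95, adjusted p = 0.06). The fall from D to L differed between leaf and root by -0.39 (SE 0.66, interval -1.74 to 0.97, adjusted p = 0.775), with 4.52% of loci called in that test.

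Against the mid-parent value (MPV), the mean of both parents on the FPKM scale, M and L lay below in all 3 libraries of each tissue. M stood at 64.0% of the MPV in root (SE 7.58, libraries from 50.7% to 76.3%) and at 70.9% in leaf (SE 14.2, libraries from 47.0% to 95.4%). L stood at 47.1% in root (SE 4.86, from 39.2% to 54.4%) and at 45.5% in leaf (SE 5.86, from 37.0% to 52.6%).

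In root these departures from the MPV did not pass both thresholds. In root M differed from the MPV by -0.49 (SE 0.29, 95% interval -1.11 to 0.13, limma adjusted p = 0.281), with 2.58% of loci called. L differed by -0.85 (SE 0.30, interval -1.48 to -0.22, adjusted p = 0.0476), which passed the p limit but not the log2 limit of 1, with 3.24% of loci called. The pooled SE again holds the spread between the plants of H. With 1 library left out at a time, replicate 1 of H among them, the limma adjusted p ranged from 0.00565 to 0.52 for M. For L it ranged from 6.13e-05 to 0.146, and neither hybrid passed the log2 limit. In leaf the differences, given without a test, were -0.53 (SE 0.55) for M and -1.10 (SE 0.56) for L.

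**Figure D2:**
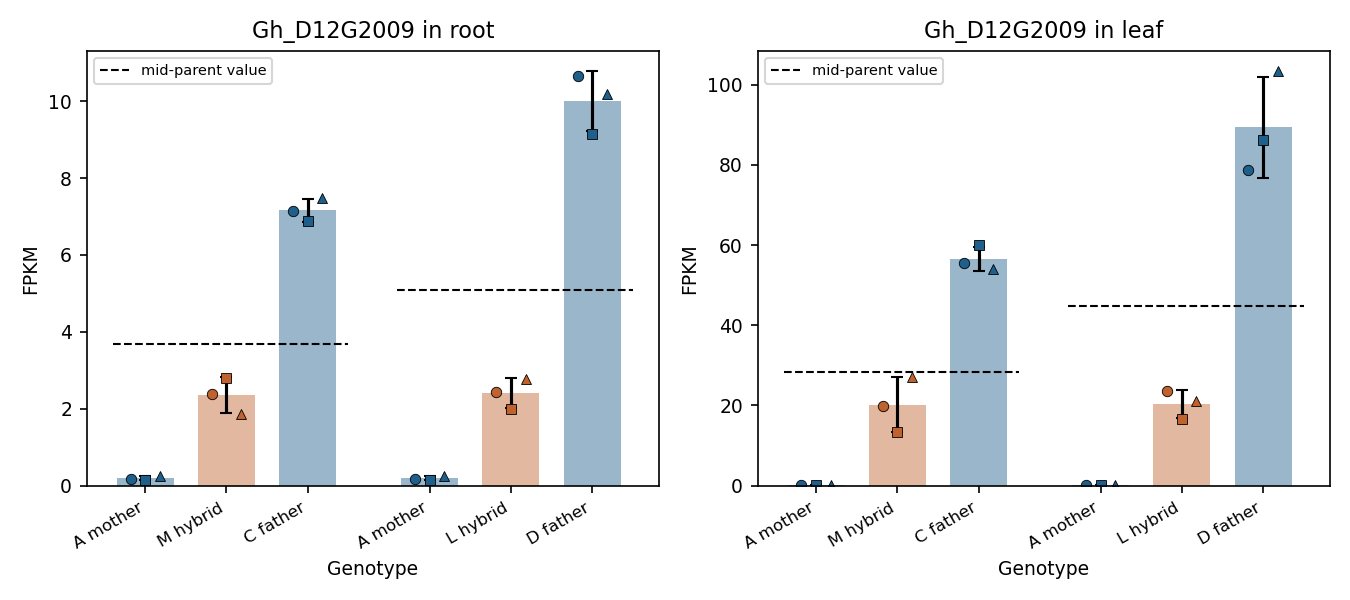
FPKM of Gh_D12G2009 in the maternal parent, the hybrid and the paternal parent of the crosses that gave M and L, in root (left) and leaf (right), with bars for means, error bars for SD, 1 point per library and a dashed line for the mid-parent value. M and L reach 64.0% and 47.1% of that value in root and 70.9% and 45.5% in leaf, and all of their points lie under the line.

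M and L stood at nearly equal levels, although D was above C in every library. The ratio of M to L was 0.979 (SE 0.146) in root and 0.986 (SE 0.218) in leaf, and their libraries overlapped in both tissues. L minus M was 0.02 in root (SE 0.31, 95% interval -0.64 to 0.68, limma adjusted p of 1) and 0.06 in leaf (SE 0.56, interval -1.12 to 1.24, adjusted p = 0.99). These intervals include differences of the size seen between D and C. Few loci were called between these hybrids, 0.251% in root and 0.64% in leaf.

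H, the hybrid of both low inbreds, was split between plants. Replicate 1 of H held 3.46 FPKM in root and 21.1 FPKM in leaf, within the leaf range of M and L and above their root values. Replicates 2 and 3 of H held 0.430 and 0.170 FPKM in root and 1.25 and 1.35 FPKM in leaf. The leaf values of those other plants lay above every library of A and B but far below those of M and L.

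Any mean of H therefore rests on 1 plant. With all 3 plants H averaged 1.35 ± 1.83 FPKM in root and 7.89 ± 11.4 in leaf, and without replicate 1 it averaged 0.300 and 1.30 FPKM, which is 168% and 276% of the MPV. H minus B was 0.74 in root (SE 0.31, 95% interval 0.08 to 1.40, limma adjusted p = 0.142) and 1.54 in leaf (SE 0.56, interval 0.36 to 2.72, adjusted p = 0.0623), and neither passed, where 2.62% and 3.5% of loci were called. Without replicate 1 these differences were 0.15 and 0.45. H minus the MPV in root was 0.73 (SE 0.27, interval 0.16 to 1.30, adjusted p = 0.0695), with 2.76% of loci called, and 0.14 without replicate 1. In leaf it was 1.73 (SE 0.49), and 0.64 without replicate 1.

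The spread of H also entered the comparison of the hybrids. In leaf M exceeded H by 2.06 (SE 0.56, 95% interval 0.88 to 3.24, limma adjusted p = 0.0475, with 1.12% of loci called), and the call was lost without either of the other H plants and without replicate 1 or 3 of M (adjusted p up to 0.199). It was also lost with the replicate block (adjusted p = 0.0522), without a filter (0.0778), in an unmoderated model (0.0814) and with only M and H fitted (0.417). L exceeded H in leaf by 2.12 (SE 0.56, interval 0.94 to 3.30, adjusted p = 0.0763, with 0.595% of loci called), which did not pass. In root the differences were 0.77 for M minus H (adjusted p = 0.408) and 0.79 for L minus H (adjusted p = 0.39), both with SE 0.31, where 0.349% and 0.341% of loci were called. Without replicate 1 of H all 4 differences passed, at 3.15 and 3.21 in leaf and 1.36 and 1.39 in root, with adjusted p of at most 2.6e-05.

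Replicate 1 of H was then read at other loci that separate the inbreds, a description chosen after the data were seen. The pattern of Gh_D12G2009, under 1 FPKM in all libraries of A and B and at least 5 FPKM in all libraries of C and D in a tissue, was met by 7 loci. At Gh_A11G2680, which has no description, replicate 1 of H held 11.4 FPKM in root and 5.67 in leaf while the other H plants held at most 0.335. At MSTRG.80667 it held 4.68 FPKM in leaf against 0.0845 and 0. It held at most 0.124 FPKM at MSTRG.32669, MSTRG.48188 and MSTRG.6876, where C and D were present, and Gh_A05G2440 was highest in replicate 3 of H (22.6 FPKM in root).

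**Figure D3:**
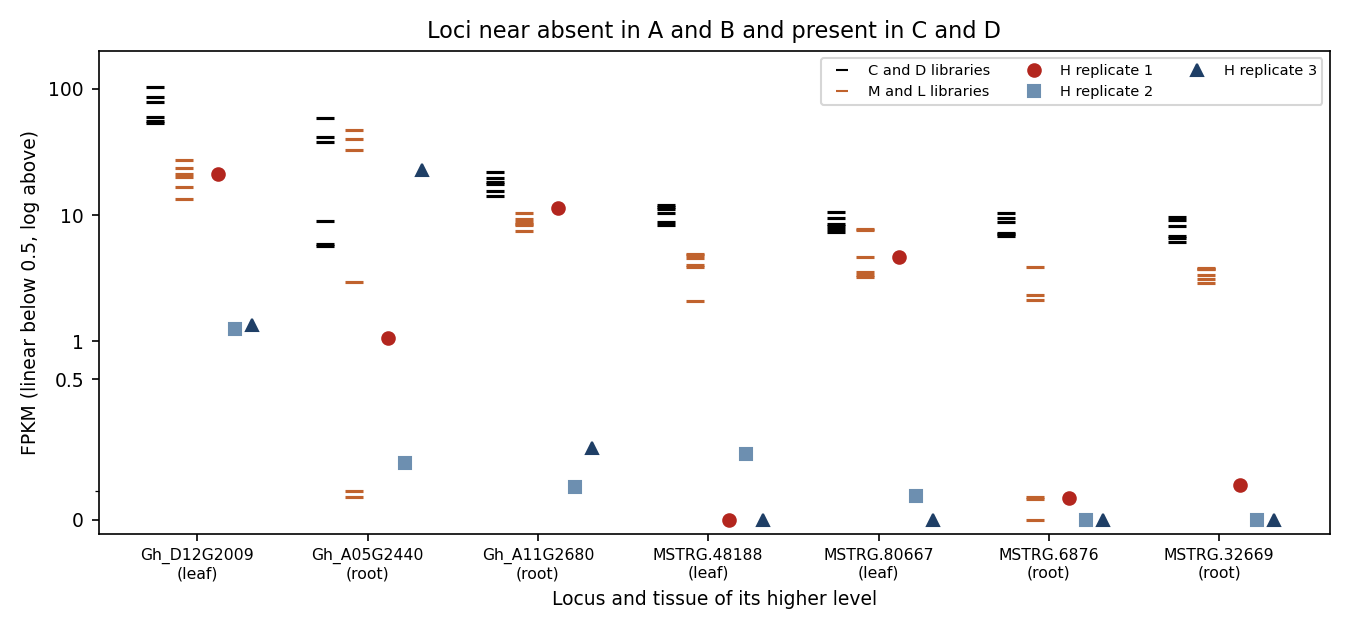
FPKM in the tissue of the higher level, on an axis linear below 0.5 and logarithmic above, for the 7 loci near absent in A and B and present in C and D, with black dashes for C and D, orange dashes for M and L, and symbols for the 3 plants of H. Replicate 1 of H lies with M and L at Gh_D12G2009, Gh_A11G2680 and MSTRG.80667 and near 0 at MSTRG.48188, MSTRG.6876 and MSTRG.32669.

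Loci present in C alone (8 in all) or D alone (22 in all) stayed near 0 in that plant. The C loci were at most 0.0668 FPKM in its libraries, and the median of the D loci was 0.0554 in root and 0.0598 in leaf, with 1 root locus at 22.9 to 24.8 FPKM in all 3 plants of H. At the 36 loci present in the root of B and near absent in that of A, its median was 8.24 FPKM against 5.04 and 4.59 in replicates 2 and 3 of H. At the 36 loci present in the root of A and near absent in B it was 2.64 against 4.65 and 3.90. Of these 36 loci, 23 reached 1 FPKM in replicate 1 of H, against 34 in each other H plant. In leaf 24 of 38 such loci did, against 35 in each. Of the loci present in B and near absent in A, 34 of 36 in root and 32 of 33 in leaf reached 1 FPKM in replicate 1. Replicates 2 and 3 had 33 and 31 in root and 30 and 31 in leaf. The origin of the difference between the H plants was not tested.

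Leaf held more Gh_D12G2009 RNA than root in all 3 plants of every genotype. The ratio of leaf to root was 7.89 in C (SE 0.314, plants from 7.22 to 8.71), 8.94 in D (SE 0.829, from 7.38 to 10.1), 8.56 in M (SE 1.96, from 4.76 to 14.5) and 8.50 in L (SE 1.16, from 7.60 to 9.65). B had a ratio of 3.998 (SE 0.402) and A of 1.39 (SE 0.224). The H plants ranged from 2.91 to 7.90, with 6.10 in replicate 1. The 4 genotypes with a high level thus had ratios between 7.89 and 8.94.

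On the log2 scale leaf exceeded root by 3.03 in D (SE 0.47, 95% interval 2.07 to 3.99, limma adjusted p = 1.4e-06), 2.61 in M (SE 0.47, interval 1.65 to 3.57, adjusted p = 1.46e-05) and 2.65 in L (SE 0.47, interval 1.69 to 3.60, adjusted p = 1.28e-05). In C the difference was 2.82 and in A 0.09. In B it was 0.52 (interval -0.44 to 1.48, adjusted p = 0.365) and did not pass. H passed with 1.32 (adjusted p = 0.0167), and at 0.83 without replicate 1 it was no longer beyond 1. Calls between leaf and root are common, from 25% of loci in B to 27% in M, with 25.5% in D, 25.1% in L and 25.6% in H.

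A second assembled locus, MSTRG.56430, carries the same gene name and no description, so the fragments of the gene may be divided between both. It read 10.4, 10.5 and 0.184 FPKM in the leaf of C and 12.7, 15.0 and 0.21 in the leaf of D, was listed at 0 in every leaf library of A and B, and reached 2.40 FPKM in the leaf of replicate 1 of H. L held 10.7, 3.16 and 8.69 FPKM and M held 2.78, 4.28 and 0 in leaf. In leaf the second locus thus varied widely within genotypes and appeared in the same genotypes as the first. Its root mean was 1.596 ± 0.588 FPKM in C and 0.414 ± 0.684 in D, the reverse order of the first locus. The root means of M and L were 0.0963 ± 0.0996 and 0.194 ± 0.337 FPKM. Some root libraries of D, M and L were listed at 0. Its leaf mean was 7.51 ± 3.898 FPKM in L and 2.354 ± 2.17 in M, with overlapping libraries. The nearly equal means of M and L were thus seen at the first locus only.

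Gh_D12G2009 was compared with the other carotenoid cleavage genes. The descriptions named 32 loci of this family, of which 3 had a mean of at least 1 FPKM and 8 passed the filter on low values. The most abundant were the carotenoid cleavage dioxygenase 1 (CCD1) genes Gh_A08G0500 and Gh_D08G0586, whose Arabidopsis relative cleaves apocarotenoids in the cytosol, with means of 44.0 and 42.2 FPKM. Per length, the leaf level of Gh_D12G2009 in D (89.4 FPKM) was above that of each CCD1 gene there (47.3 and 47.5), and in C (56.5) it was near them (46.6 and 48.5).

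The other family members did not share the division of the genotypes. A CCD1 gene with a lower level, Gh_D05G0490, was lower than in A (2.51 FPKM) in the root of B (0.717) and C (0.744), with log2 differences of -1.02 and -1.01 (limma adjusted p = 6.36e-05 and 8.93e-05), and stood at 1.87 in D. The leaf means of the abundant CCD1 genes lay between 43.3 and 51.9 FPKM over all 7 genotypes. The sum of the other 31 family loci in leaf was 97.8 ± 2.59 FPKM in A, 94.6 ± 1.49 in B, 95.9 ± 7.68 in C and 95.7 ± 7.51 in D. Gh_D12G2009 made up 0.266% of the family sum in the leaf of A, 37.1% in C, 48.2% in D, 16.6% in M and 17.9% in L. In root its share was 0.208% in A, 7.71% in C and 10.6% in D.

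**Figure D4:**
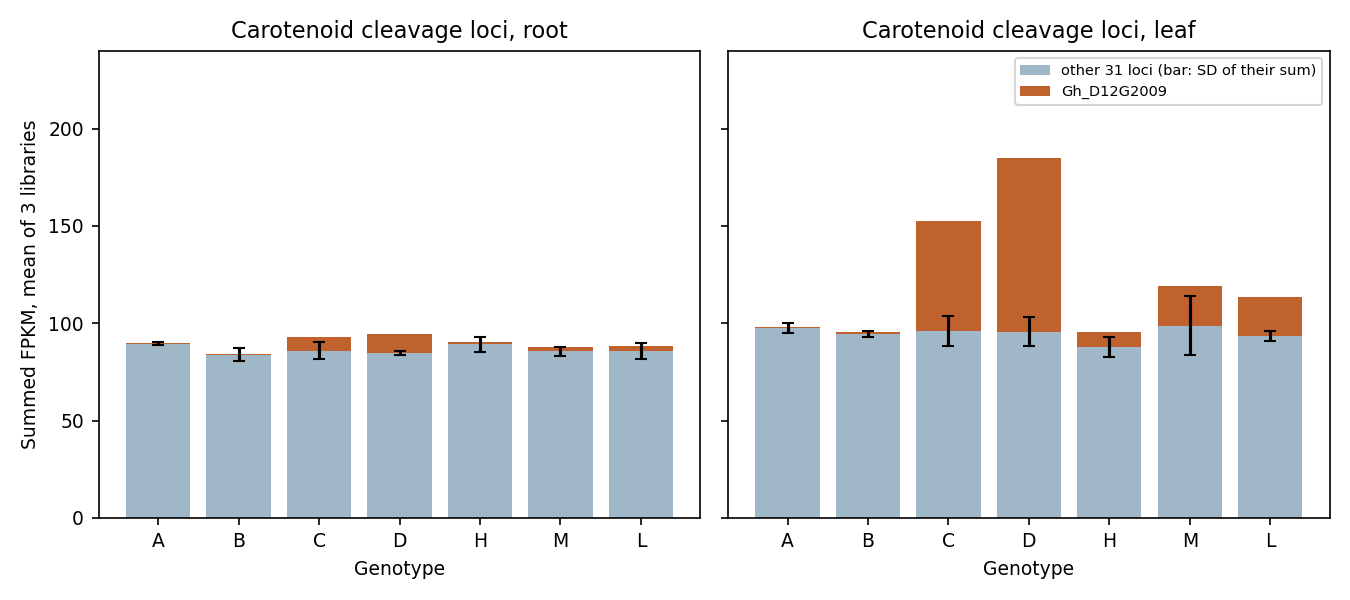
Summed FPKM of the carotenoid cleavage loci in root (left) and leaf (right), mean of 3 libraries per genotype, divided into Gh_D12G2009 (orange) and the other 31 loci (blue, error bars for the SD of their sum). The blue part lies between 83.9 and 98.8 in every genotype and tissue, and the orange part is largest in the leaf of D (48.2% of the sum) and C (37.1%).

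No other gene described as nine-cis-epoxycarotenoid dioxygenase was well expressed. The loci named after NCED3, NCED5, NCED6 and NCED9, whose Arabidopsis relatives start ABA synthesis, had means of at most 0.0914 FPKM, and none passed the filter on low values. The other 3 loci described like Gh_D12G2009 were Gh_A12G1838 on chromosome A12, with a mean of 0.125 FPKM, Gh_D09G0984 with 0.00706 and Gh_A09G0952 with 0.0019. How fragments shared by near-identical copies were counted is not stated. The CCD7 and CCD8 loci, which make strigolactones in Arabidopsis, were seen in root, with library values of up to 2.37 and 2.77 FPKM.

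Genes before and after the cleavage step were read from lists of descriptions, without a test of a list. In carotenoid synthesis 0 of 31 root loci and 0 of 35 leaf loci were called in C minus A, where 1.58% and 1.63% of all loci tested were called, and their median differences were -0.14 and -0.10 against 0.02 and 0.04 over all loci. At an unadjusted p under 0.05 from limma, with no log2 limit, 10 and 7 of these loci passed. The share of all loci at this looser limit is not given. Counts at an unadjusted p, here and below, therefore cannot be set against the percentages of loci called. In D minus A 0 of 31 root loci and 1 of 35 leaf loci, lower in D, were called. There 2.57% and 2.24% of all loci were called, and 14 and 13 of the synthesis loci passed at an unadjusted p. Zeaxanthin epoxidase (Gh_A11G1774), which forms the epoxycarotenoids, had leaf means of 55.1 FPKM in A, 50.4 in C and 67.3 in D. Its root means were 17.0 FPKM in A, 17.0 in C and 28.6 in D. In root D minus A was 0.72 and L minus D was -0.75 (limma adjusted p = 6.23e-06 and 3.14e-06), neither beyond the log2 limit. Of the loci for plastid isoprenoid precursors 3 of 29 were called in C minus A in root (1 higher and 2 lower) and 0 of 23 in leaf, with 6 in leaf at an unadjusted p. Of the plastoglobule loci 0 of 25 in root and 0 of 27 in leaf were called, with 6 and 3 at an unadjusted p, and of the ABA response loci 1 of 30 in root, lower in C, and 0 of 24 in leaf, with 4 and 3 at an unadjusted p.

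In ABA synthesis and breakdown after cleavage, 2 of 12 leaf loci were called in C minus A and 2 of 12 in D minus A, all lower than in A. Both are CYP707A genes, for ABA 8′-hydroxylase, which inactivates ABA. Gh_A08G1344 had leaf means of 11.2 ± 3.52 FPKM in A, 7.61 ± 1.82 in B, 2.92 ± 0.118 in C and 3.66 ± 0.304 in D, and log2 differences from A of -1.60 in C and -1.35 in D (limma adjusted p = 0.000286 and 0.000888). Gh_D08G1639 fell from 9.09 ± 2.71 FPKM in A to 2.17 ± 0.527 in C and 2.38 ± 0.362 in D (-1.65 and -1.54, adjusted p = 0.000633 and 0.000722). Both were higher in the leaf of L than in that of D, by 1.13 and 1.42 (adjusted p = 0.0027 and 0.00107). Their levels did not mirror those of Gh_D12G2009 throughout. In the leaf of H, where 2 of 3 plants held at most 1.35 FPKM of Gh_D12G2009, they stood at 3.29 ± 0.329 and 2.43 ± 0.538 FPKM, near C and D. H minus B in leaf was -0.99 for Gh_A08G1344 and -0.84 for Gh_D08G1639 (adjusted p = 0.00605 and 0.0289), neither beyond the log2 limit. In root C and D were not below A, with means of 22.8 and 20.1 against 19.1 FPKM for Gh_A08G1344 and of 18.9 and 16.4 against 11.3 for Gh_D08G1639.

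No gene next to Gh_D12G2009 was called between A and the other inbreds. Within 10 gene numbers or 10 assembled loci on either side stood 24 neighbours, of which 19 in root and 13 in leaf passed the filter. This holds for B, C and D minus A by limma with both thresholds. Of all loci tested, 1.82% (root) and 1.28% (leaf) were called in B minus A. The shares were 1.58% and 1.63% in C minus A and 2.57% and 2.24% in D minus A. At such shares hardly any call would fall among so few loci, so the lack of calls is not particular to the neighbours. At an unadjusted p under 0.05 from limma, with no log2 limit, 2 of 19 in root and 6 of 13 in leaf passed in C minus A. The share of all loci at that looser limit is not given. The differences of the neighbours in C minus A ranged from -0.18 to 0.55 in root and from -0.94 to 0.22 in leaf. The gene numbered before it, Gh_D12G2008, had a root mean of 6.28 FPKM in A and 5.67 in C, and the gene numbered after it, Gh_D12G2010, had 2.04 and 2.65. Some smaller differences passed the p limit alone. In leaf Gh_D12G2008 averaged 6.44 FPKM in A, 4.40 in C and 4.77 in D, with log2 differences from A of -0.47 and -0.36 (limma adjusted p = 0.00832 and 0.0311), and in root D minus A was -0.41 (adjusted p = 0.0113). Gh_D12G2010 differed by -0.52 in D minus A in leaf (adjusted p = 0.0183). Gh_D12G2016 differed more, by -0.89 in D minus A in leaf (adjusted p = 9.67e-05), with means of 16.8 FPKM in A and 8.60 in D. In root D minus A was 0.53 for Gh_D12G2012 and 0.56 for Gh_D12G2017 (adjusted p = 0.00694 and 0.0322).

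**Figure D5:**
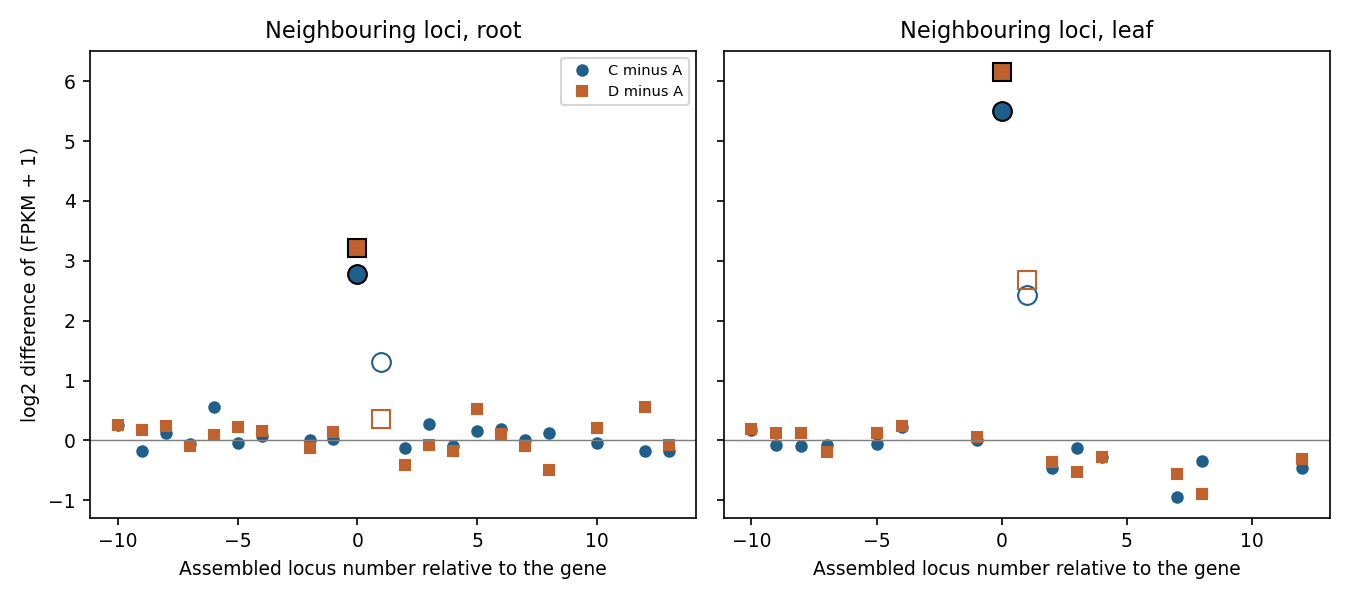
Log2 difference of (FPKM + 1) for C minus A (blue) and D minus A (orange) against the assembled locus number relative to Gh_D12G2009, in root (left) and leaf (right). The large filled symbols at 0 are the gene itself (2.78 and 3.21 in root, 5.51 and 6.15 in leaf), the open symbols are the second locus of its name, and all other neighbours lie between -0.94 and 0.56.

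Few genes followed Gh_D12G2009 across the groups. The correlation of log2(FPKM + 1) with it over the 14 means of genotype and tissue exceeded 0.9 at 2 of 32021 other named loci, Gh_A07G1778 (r = 0.93) and the second locus of its own name (r = 0.92). These points share the leaf and root difference and the hybrids' parents, so the values are a description. The next were Gh_A02G0458, an alpha/beta-hydrolase family gene, and Gh_A11G1513, both with r = 0.89, but Gh_A02G0458 stood at 12.9 to 26.8 FPKM in every group. Group means lay from 0.123 to 1.88 FPKM for Gh_A07G1778 and from 0.804 to 1.37 for Gh_A11G1513. Both are low levels, at which small differences are poorly resolved. The photosystem I subunit G gene Gh_D05G3725 (r = 0.88) was listed at 0 in every library of A and B, leaf included, although leaves depend on photosystem genes, so its levels are not given.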

How the data were processed

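The deposited table holds FPKM per locus and library; the authors aligned paired-end reads by HISAT2 against TM-1, StringTie gave the FPKM, with versions not given in the sources used here. FPKM were taken as log2(FPKM + 1), and loci with at least 1 FPKM in at least 3 libraries of a tissue were kept (59282 in root, 54835 in leaf). limma 3.58.1 in R 4.3.3 modelled each tissue by genotype means (21 libraries) with a variance trend, and leaf against root by means of genotype and tissue (42 libraries), 2-sided, with Benjamini-Hochberg adjustment over all loci. The MPV was taken on the FPKM scale, with a delta-method SE. Replicates are plants, so p measures the spread between plants within genotypes, pooled over all groups of a fit. The split of the H plants therefore enters the SE of every comparison of this gene, also of those without H. Replicate numbers do not pair genotypes (median residual correlation 7.15e-05 in root and -0.00756 in leaf). By the study's methods both tissues of a number are 1 plant (median 0.0094), and plant was an alternative block. On simulated data 96% of planted log2 changes of 1.5 were called in root and 98% in leaf for M minus C. They were planted only at loci with a mean log2(FPKM + 1) above 3. The gene did not reach that mean in root, so the root share does not apply to it. The leaf share is taken over loci that each had their own spread. The SE of this gene holds the split of the H plants, so the leaf share does not apply to it either. The gene, the description lists and the comparisons were chosen with earlier results of these data known. Named genes are the gene, the highest and the most changed called members of each list, the family, the neighbours and the 8 most correlated named loci; others were chosen after their values were seen. Python 3.11.15, pandas 2.3.3 and matplotlib 3.10.9 made tables and figures.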

Additional observations from a re-analysis of the deposited data

Results flagged for a closer look

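In leaf all 3 libraries of H lay above the mid-parent value of Gh_D12G2009 while all 3 of M and all 3 of L lay below theirs, so the hybrids moved in opposite directions under the same contrast. The log2 differences from the mid-parent value were 1.73 in H, -0.53 in M and -1.10 in L, and the difference between the hybrids was not tested. The mid-parent values share the libraries of A, and that of H, 0.469 FPKM, is far below those of M (28.4 FPKM) and L (44.8 FPKM). Without replicate 1, H was 0.64 above its mid-parent value.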

How the results depend on the processing

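Of the recomputed values, 497 stayed the same, 17 fell below the thresholds, 18 passed newly, 15 moved and 6 reversed. For most comparisons the same meant an unchanged direction and side of the thresholds. For differences from A it meant a shift smaller than the SD of the replicates, and for counts of loci a small change. A pseudocount of 0.1 gave -1.58 for M minus C in root (no longer passing), 1.53 for H minus the mid-parent value in root and 2.16 for H minus B in leaf (newly passing), 1.53 for leaf minus root in B (newly passing), 4.67 and 5.15 for C and D minus A in root, 1.10, 7.29 and 7.94 for B, C and D minus A in leaf, 0.043 for the M minus C difference between tissues (against -0.20), and 6, 10, 3, 2 and 6 called list genes in B, C and D minus A in root and B and C minus A in leaf (against 3, 6, 1, 0 and 3). In C and D minus A these list counts hold Gh_D12G2009 itself, which was the only list gene called in D minus A in root with the main settings. With those settings 1.82%, 1.58%, 2.57%, 1.28% and 1.63% of all loci tested were called in the same 5 comparisons. Quantile normalization gave 5.41 for C minus A in leaf, and both loci of the name summed gave 3.01 and 5.67 for C minus A in root and leaf and 2.43 for L minus H in leaf (newly passing). At an unadjusted p, H minus B (1.54) and L minus H (2.12) passed in leaf. M minus H in leaf, 2.06, no longer passed without a filter, in an unmoderated model, with only the compared groups, or with the replicate number as a replicate block (adjusted p = 0.0522), and the block changed no other call. The leaf values given without a test, -1.50 for M minus C, -1.10 for L minus the mid-parent value and 1.73 for H minus the mid-parent value, were the same with only the compared groups fitted, and M minus C and L minus the mid-parent value also without replicate 1 of H, a setting chosen after seeing the data. The counts above include such values, for which the thresholds are no test. Without replicate 1 of H, M minus C and L minus the mid-parent value in leaf changed sides of the thresholds.

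With each replicate left out, B minus A in root ranged from -0.047 to 0.013, M minus H from 0.40 to 1.36, L minus H from 0.42 to 1.39, H minus B from 0.15 to 1.11, H minus the mid-parent value from 0.14 to 1.10 and L minus M from -0.085 to 0.12. In leaf L minus D ranged from -2.19 to -1.95, H minus the mid-parent value from 0.64 to 2.29, L minus H from 1.56 to 3.21, H minus B from 0.45 to 2.10, M minus H from 1.5 to 3.15, L minus M from -0.19 to 0.29, M minus C from -1.73 to -1.24 and L minus the mid-parent value from -1.21 to -0.97. Leaf minus root in H ranged from 0.23 to 1.92. Of the 8 most similar genes, 4 were shared with Spearman's rho and 3 with r over the 42 libraries. The cause of these changes was not tested. With 3 plants per genotype and levels under 1 FPKM in A and B, small differences there cannot be resolved, and read counts behind the values are unknown.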
